A study of Homo sapiens with 12 samples.

Results

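The integrated stress response and the unfolded protein response were followed through 36 genes in RNA sequencing of Ovcar8, a cell line derived from ovarian carcinoma. The genes were taken by symbol from a list of 16 targets and regulators of the transcription factor ATF4 (the ATF4 arm) and 20 sensors, chaperones and degradation factors of the endoplasmic reticulum (the ER arm). All 36 were found among the 58735 genes of the count table, and all 36 passed the filter on low counts that left 15378 genes for testing.

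The 12 libraries formed 4 groups of 3. Cells with CCNE1 overexpression and the hairpin shTMLHE #1 and cells with CCNE1 overexpression and the hairpin shTMLHE #2 were set against cells with CCNE1 overexpression alone (CCNE1 cells), and CCNE1 cells were set against control cells. CCNE1 encodes cyclin E1, the partner of CDK2 at entry into S phase, and TMLHE encodes the first enzyme of carnitine synthesis. All groups shared lentiviral transduction and puromycin selection at 3 ug/ml, and the labels name neither the promoter that drives CCNE1 nor a control hairpin for the CCNE1 cells. Whether the 3 libraries of a group came from different cultures is not labelled, so the p-values reflect only the spread among libraries, and that spread may be technical.

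Cells sense trouble in protein supply by interlocking routes. When translation factor eIF2 is phosphorylated, by PERK (EIF2AK3) at the ER or by kinases that sense amino acid shortage, viral RNA or loss of heme, most translation slows while the ATF4 mRNA is translated better, and ATF4 then switches on amino acid transporters, amino acid enzymes and stress regulators. At the ER, IRE1 (ERN1) splices the XBP1 mRNA and ATF6 is cut at the Golgi, and their products raise ER chaperones and the machinery that removes misfolded proteins. In cancer cells these routes are known for helping cells live with high protein synthesis and short nutrient supply. Gene counts measure the amount of each RNA and do not measure ATF4 translation, XBP1 splicing or ATF6 cleavage.

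Libraries held 14054101 to 21457503 counts. CPM below are counts of a gene per 1000000 counts of its library after scaling by trimmed mean of M-values (TMM), and a fold change is called at a Benjamini-Hochberg adjusted p under 0.05 over all tested genes. The overexpressed and the targeted gene followed the labels: CCNE1 averaged 1001 ± 34 CPM in CCNE1 cells and 33.1 ± 1.28 CPM in control cells, and TMLHE averaged 0.956 ± 0.286 CPM with shTMLHE #1 and 0.482 ± 0.241 CPM with shTMLHE #2, against 15.7 ± 2.69 CPM in CCNE1 cells (SD, n = 3). The level of CCNE1 was not equal in the hairpin groups, at 1269 CPM with shTMLHE #1 and 847 CPM with shTMLHE #2. Against CCNE1 cells its log2 fold changes were 0.34 ± 0.03 and -0.24 ± 0.03 (SE), both called, and between the hairpins 0.58 ± 0.03. The sign with shTMLHE #2 depended on the processing, as given below. The part of these levels in the results below was not tested. Of 10 ovarian serous epithelial markers 5 passed the filter (PAX8, KRT7, KRT8, KRT18 and EPCAM). MUC16 and MECOM were at 0 in all libraries, and WT1, SOX17 and CDH6 were at most at 0.34 CPM in any group mean. The summed epithelial markers ranged from 5979 to 6209 CPM with shTMLHE #1, from 4172 to 4268 CPM with shTMLHE #2, from 7831 to 7924 CPM in CCNE1 cells and from 4614 to 4678 CPM in control cells. Most of each sum was keratin (in CCNE1 cells KRT8 at 4006 CPM, KRT18 at 2572 CPM and KRT7 at 1177 CPM). PAX8 did not follow the sum, at 150 CPM with shTMLHE #1, 69.9 CPM with shTMLHE #2, 108 CPM in CCNE1 cells and 126 CPM in control cells. EPCAM was at most at 3.27 CPM in any group mean. Leukocyte markers (1 of 5 passed) summed to at most 2.86 CPM and endothelial markers (2 of 4 passed) to at most 3.3 CPM in any library, and the fibroblast gene DCN was at 0. In group means the fibroblast genes COL1A2 and LUM were at most at 0.112 and 0.312 CPM, and PDGFRB was at 19.6 to 45.4 CPM. Fibroblast markers (2 of 5 passed, most of the sum being COL1A1) summed to 1535 to 1628 CPM with shTMLHE #1, 1257 to 1296 CPM with shTMLHE #2, 611 to 640 CPM in CCNE1 cells and 900 to 967 CPM in control cells, and their part in the results below was not tested. Because these are bulk samples, fewer cells of a kind and less RNA per cell cannot be told apart.

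A trend with base composition ran through every comparison and touched the ATF4 and ER arms unequally. Transcripts of the ATF4 arm had a median GC content of 57.8% (42.7 to 66.2%), transcripts of the ER arm 45.5% (39.4 to 65.5%), and all tested genes 48.9%. The count-weighted mean GC content of the libraries was 51.8 ± 0.145% with shTMLHE #1, 50 ± 0.062% with shTMLHE #2, 52.9 ± 0.052% in CCNE1 cells and 53.2 ± 0.079% in control cells (SD, n = 3). Across all tested genes, the tenth with the least GC had a median log2 fold change of 1.27 with shTMLHE #2, and the tenth with the most GC had -1.27. With shTMLHE #1 the same sets of genes had 0.64 and -0.45, and with CCNE1 they had 0.48 and -0.04. As a description over genes that share the same libraries, Spearman's rho between log2 fold change and GC content with shTMLHE #2 was -0.75 over the 36 members and -0.637 over all tested genes. Most fold changes below are therefore also given with the trend on GC content and transcript length removed (the trend-removed value). Scaling by total counts instead of TMM moved the median log2 fold change of all genes to 0.43 with shTMLHE #1 and to 0.56 with shTMLHE #2, against 0.03 with each by TMM. It raised the share of calls that were rises to 75.9% with shTMLHE #1 and 70.7% with shTMLHE #2, against 50% and 50.4% by TMM, so changes below are changes relative to the other genes.

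**Figure D1:**
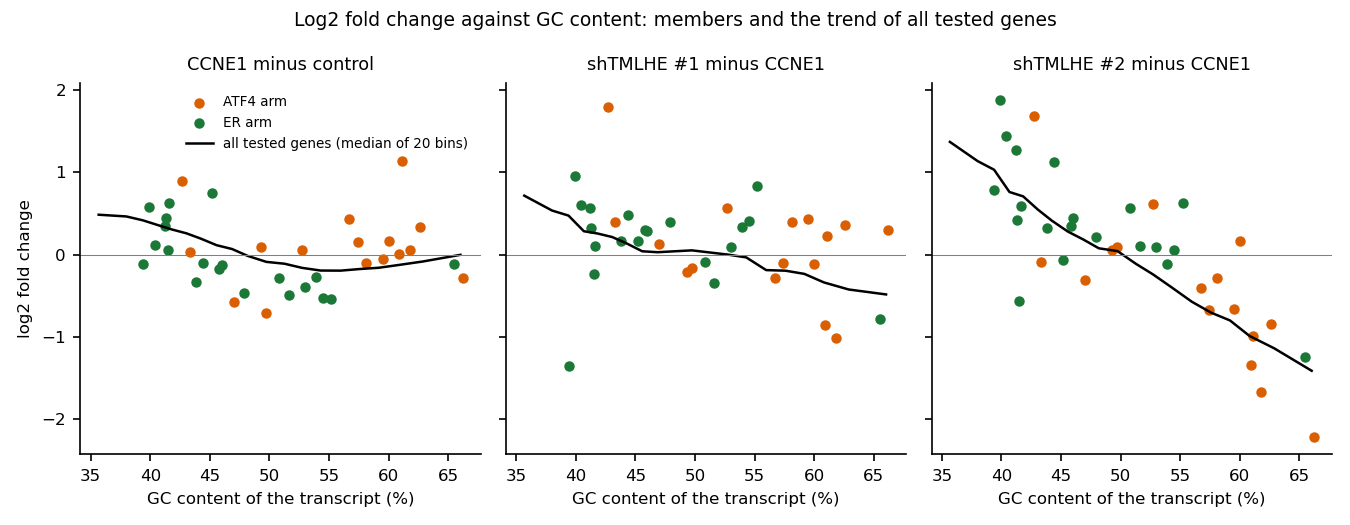
Log2 fold change (y axis) against GC content of the longest transcript in percent (x axis) for the 16 ATF4 arm genes (orange) and the 20 ER arm genes (green) in 3 comparisons, with the median of all tested genes in 20 bins of GC content (line). With shTMLHE #2 the line runs down across the range, with CEBPB at -2.22 at the GC-rich end and DNAJC3 at 1.88 at the GC-poor end.

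Per length, the most abundant members were the ER lectin CALR, ATF4 itself and the ER HSP70 chaperone HSPA5 (BiP). The FPKM deposited by the authors, which divide counts by gene length, averaged 347 with shTMLHE #1, 253 with shTMLHE #2, 278 in CCNE1 cells and 341 in control cells for CALR. For ATF4 they averaged 227 with shTMLHE #1, 209 with shTMLHE #2, 281 in CCNE1 cells and 212 in control cells. For HSPA5 they averaged 157 with shTMLHE #1, 175 with shTMLHE #2, 130 in CCNE1 cells and 145 in control cells. These 3 genes held the first 3 places in every group, and ATF4 stood above CALR by mean in CCNE1 cells only, where 281 ± 8.52 FPKM for ATF4 and 278 ± 12.1 FPKM for CALR lie within their spread. The lowest members in control cells were the stress sensor ERN1, the cochaperone DNAJB9, the lipoprotein receptor VLDLR and asparagine synthetase ASNS, with group means of 0.347 to 2.27 FPKM. ASNS, a textbook ATF4 target, averaged 0.675 ± 0.084 FPKM with shTMLHE #1, 0.504 ± 0.183 FPKM with shTMLHE #2, 0.624 ± 0.181 FPKM in CCNE1 cells and 0.951 ± 0.146 FPKM in control cells (SD, n = 3), close to the bottom of the list in every group.

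**Figure D2:**
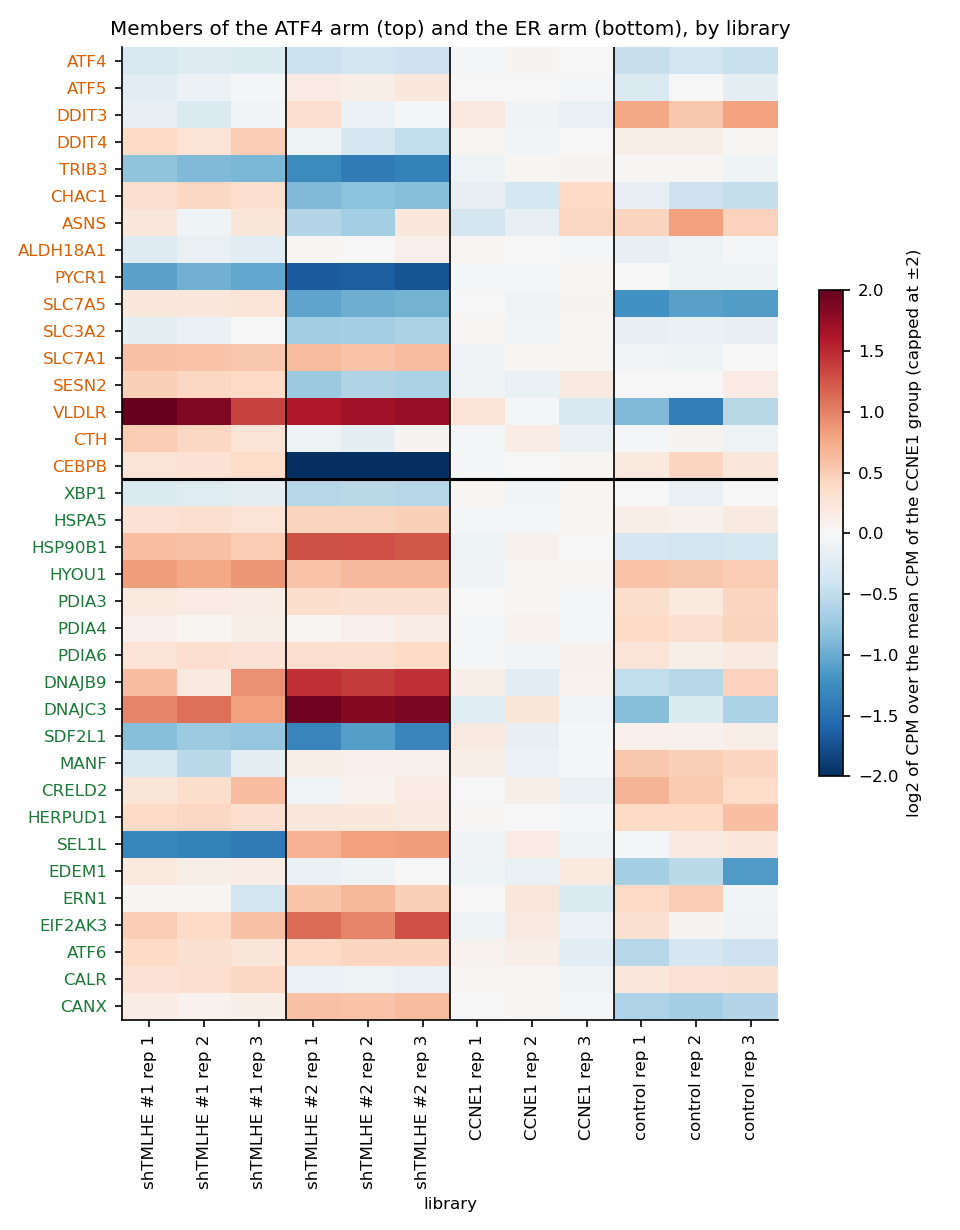
Heat map of all 36 members (rows, ATF4 arm above the line and ER arm below) in all 12 libraries (columns), coloured by the log2 of CPM over the mean CPM of the CCNE1 group. TRIB3 and PYCR1 are blue in all 6 hairpin libraries, HYOU1 and DNAJC3 are red in all 6, and CEBPB and SEL1L differ in colour between the hairpins.

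With CCNE1 overexpression the ER arm fell more often than it rose, while SLC7A5 and SLC3A2, the chains of an amino acid transporter in the ATF4 arm, rose. In the ER arm 9 of 20 genes fell and 5 rose (median log2 fold change -0.12), and in the ATF4 arm 5 of 16 rose and 2 fell (median 0.05). Of all tested genes 44.2% were called, 25.1% higher and 19.1% lower, with a median of 0.05. The trend-removed fit called 10 lower and 3 higher in the ER arm and 10 higher and 2 lower in the ATF4 arm, beside 23.8% of all genes in that fit called higher and 13.4% lower, and of the 9 falls in the ER arm 8 stayed called, the exception being CALR.

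With shTMLHE #1, 12 of 20 ER arm genes rose and 4 fell against CCNE1 cells (median 0.30), and 8 of 16 ATF4 arm genes rose and 5 fell (median 0.18). The background was 60.7% of all tested genes called, 30.4% higher and 30.3% lower. With shTMLHE #2, 14 of 20 ER arm genes rose and 3 fell (median 0.38), and 2 of 16 ATF4 arm genes rose and 9 fell (median -0.36), beside 73% of all tested genes called, 36.8% higher and 36.2% lower. Both hairpin comparisons use the same CCNE1 libraries and are not independent. Of the rises in the ER arm, 8 of 12 with shTMLHE #1 and 9 of 14 with shTMLHE #2 were also called higher in the trend-removed fit. In that fit the ATF4 arm had 11 higher and 3 lower with shTMLHE #1 and 8 higher and 5 lower with shTMLHE #2, and the ER arm had 9 higher and 3 lower with shTMLHE #1 and 13 higher and 6 lower with shTMLHE #2. Of all genes in that fit 27.2% were higher and 28.8% lower with shTMLHE #1, and 29.8% were higher and 32.8% lower with shTMLHE #2. For the ATF4 arm only 4 of the 9 falls with shTMLHE #2 (TRIB3, PYCR1, SLC7A5 and CEBPB) were called lower in it. By total counts the split with shTMLHE #1 was 16 higher and 2 lower in the ER arm and 12 higher and 2 lower in the ATF4 arm, beside 51% of all genes higher and 16.2% lower by that scaling. With shTMLHE #2 it was 18 higher and 1 lower in the ER arm and 7 higher and 6 lower in the ATF4 arm, beside 54.1% of all genes higher and 22.4% lower.

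**Figure D3:**
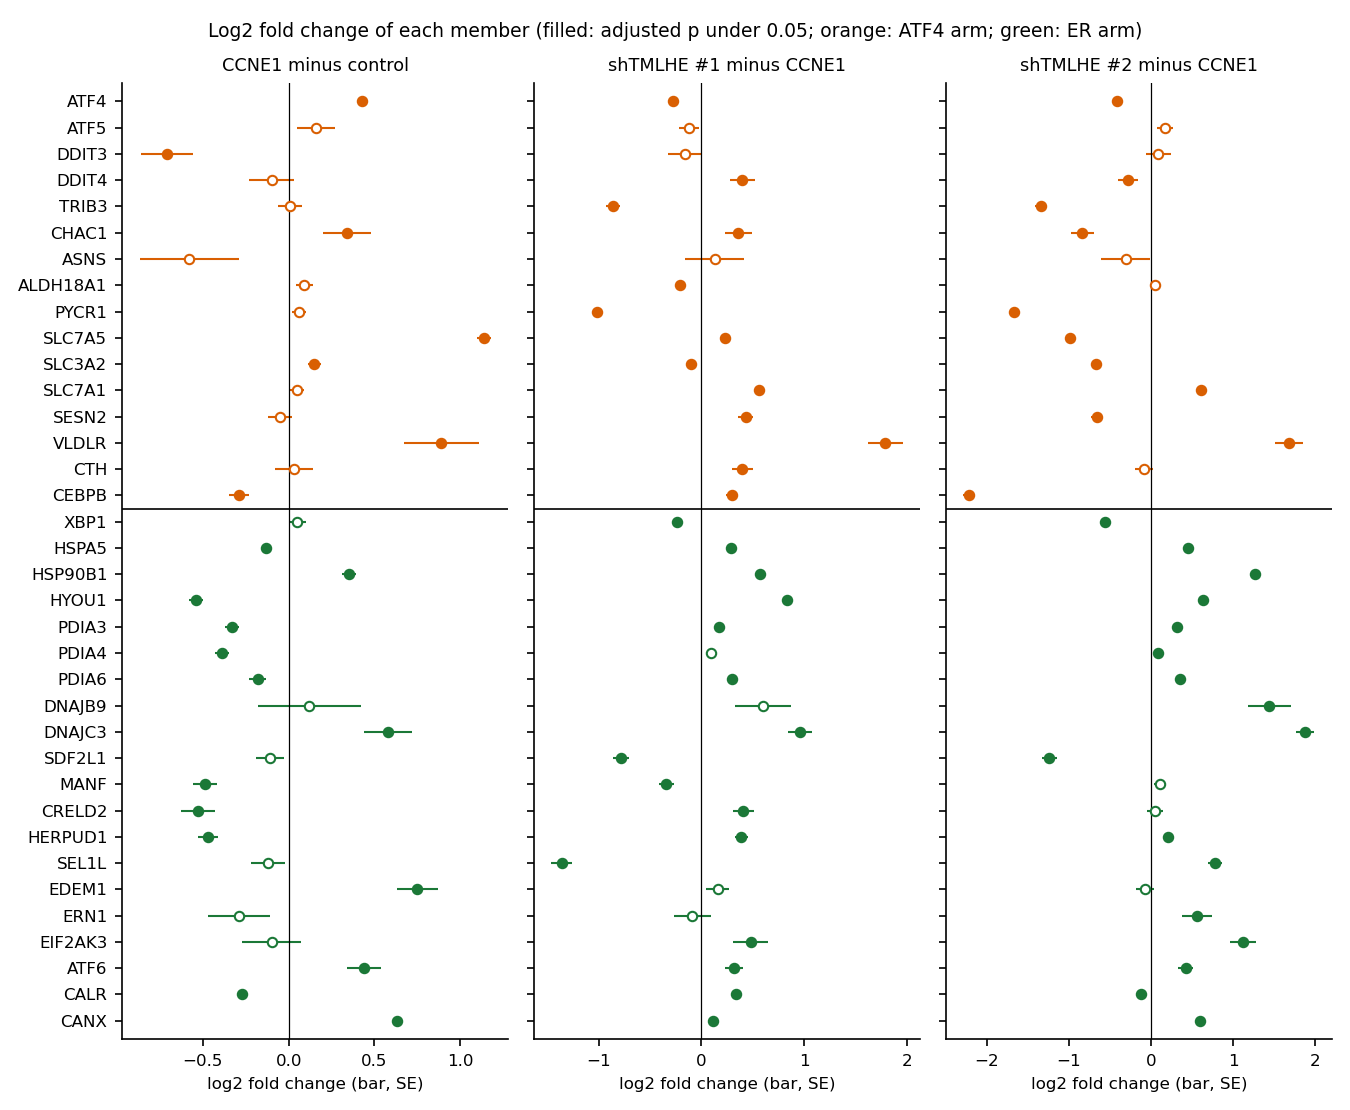
Log2 fold change (x axis, bars show SE) of each member (y axis) for CCNE1 cells against control cells and for each hairpin against CCNE1 cells; filled points have an adjusted p under 0.05. HYOU1, HERPUD1, PDIA6 and HSPA5 lie left of 0 with CCNE1 and right of 0 with each hairpin, whereas ATF4 lies right of 0 with CCNE1 and left of 0 with each hairpin as counted; with the GC and length trend removed its hairpin values are 0.08 and 0.32.

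ATF4, the factor that gives the arm its name, was most abundant in CCNE1 cells (GRCh38, chr22:39519695-39522685, plus strand). Its RNA stood at 552, 577 and 568 CPM with shTMLHE #1, at 510, 529 and 517 CPM with shTMLHE #2, at 670, 712 and 684 CPM in CCNE1 cells and at 502, 529 and 505 CPM in control cells. Every CCNE1 library was above every library of the other groups. The rise with CCNE1 had a log2 fold change of 0.43 ± 0.03 (SE, adjusted p = 2.1e-13) and a trend-removed value of 0.67. As counted ATF4 fell with shTMLHE #1 (-0.28 ± 0.03, adjusted p = 1.39e-09) and with shTMLHE #2 (-0.41 ± 0.03, adjusted p = 5.21e-14), but the sign of both turned with the trend removed, to 0.08 and 0.32, and by total counts, to 0.11 and 0.12.

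As counted, none of the other transcription factors of the arm followed ATF4 through every comparison. CEBPB, a bZIP partner of ATF4, stood at 108, 111 and 117 CPM with shTMLHE #1, at 18.9, 20.6 and 19 CPM with shTMLHE #2, at 89.1, 90.2 and 92.7 CPM in CCNE1 cells and at 104, 122 and 106 CPM in control cells. The shTMLHE #2 libraries were far below all others, with a log2 fold change of -2.22 ± 0.07 (adjusted p = 9.22e-28) that was -0.82 with the trend removed. CEBPB is the member richest in GC at 66.2%, and 11.8% of its exon bases overlap CEBPB-AS1. With shTMLHE #1 it rose by 0.30 ± 0.06, and with CCNE1 it fell by 0.29 ± 0.06, and the trend-removed values were 0.92 and -0.17, both called.

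DDIT3 (CHOP), a factor linked to death under lasting ER stress, fell with CCNE1. It stood at 10.5, 8.8 and 8.36 CPM in CCNE1 cells and at 15.8, 13.4 and 16.1 CPM in control cells, groups that do not overlap (log2 fold change -0.71 ± 0.15, adjusted p = 0.0002, trend-removed -0.57). With the hairpins it averaged 8.21 ± 0.659 CPM (shTMLHE #1) and 9.78 ± 1.7 CPM (shTMLHE #2), not called against CCNE1 cells as counted (-0.16 and 0.09; trend-removed 0.17 and 0.42, the second called). Of its exon bases 39.6% overlap other genes, MARS and MBD6 among them, so part of its reads may belong to those. ATF5, a factor that is itself translated under eIF2 phosphorylation, was not called in any of the 3 comparisons (0.16, -0.12 and 0.17), although with the trend removed it was higher in each (0.37, 0.37 and 1.16).

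TRIB3, a pseudokinase that ATF4 and CHOP induce and that damps their response, and PYCR1, the mitochondrial enzyme that completes proline synthesis, were the clearest falls with the hairpins. TRIB3 stood at 41.3, 39.2 and 38.3 CPM with shTMLHE #1, at 29.7, 27 and 28.3 CPM with shTMLHE #2 and at 67, 73.8 and 74.8 CPM in CCNE1 cells. PYCR1 stood at 171, 185 and 174 CPM with shTMLHE #1, at 113, 115 and 109 CPM with shTMLHE #2 and at 352, 354 and 370 CPM in CCNE1 cells. In both genes the 3 groups do not overlap, and control cells had 71.2 ± 3.18 CPM of TRIB3 and 343 ± 11.8 CPM of PYCR1. CCNE1 cells were not called apart from control cells as counted (0.01 for TRIB3 and 0.06 for PYCR1) and were called higher with the trend removed (0.22 and 0.25). The log2 fold changes of TRIB3 were -0.86 ± 0.07 with shTMLHE #1 (trend-removed -0.42) and -1.34 ± 0.07 with shTMLHE #2 (trend-removed -0.34). Those of PYCR1 were -1.02 ± 0.04 (trend-removed -0.46) and -1.67 ± 0.04 (trend-removed -0.53), with all 8 hairpin values called. The size of each fall thus depended on the trend, by more than 1.5 times. Other genes overlap 29.7% of the exon bases of PYCR1, which lies at chr17:81932384-81942412 on the minus strand.

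Amino acid transport moved by gene, not as a block. SLC7A5 (LAT1), which takes up leucine and other large neutral amino acids as a dimer with SLC3A2, rose with CCNE1. It stood at 345, 325 and 358 CPM in CCNE1 cells and at 148, 161 and 158 CPM in control cells (log2 fold change 1.14 ± 0.04, adjusted p = 4.08e-23, trend-removed 1.30). With shTMLHE #1 it was higher still at 397, 402 and 409 CPM (0.23 ± 0.04, trend-removed 0.46), and with shTMLHE #2 it was at 166, 174 and 178 CPM (-0.99 ± 0.04, trend-removed -0.23). The SLC7A5 levels of the hairpin groups thus lie on either side of the CCNE1 cells, with shTMLHE #2 above every control library.

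SLC3A2, the heavy chain of that dimer, rose by 0.15 ± 0.04 with CCNE1 (310 ± 12.4 CPM in CCNE1 cells and 280 ± 3 CPM in control cells; trend-removed 0.39). As counted it fell by 0.67 ± 0.04 with shTMLHE #2 and by 0.10 ± 0.04 with shTMLHE #1, but both signs turned with the trend removed (0.10 with shTMLHE #2 and 0.26 with shTMLHE #1), and by total counts that of shTMLHE #1 turned to 0.29. The call with shTMLHE #1 was lost without CCNE1 replicate 1 (-0.08) or 3 (-0.10) or without shTMLHE #1 replicate 1 (-0.06) or 2 (-0.09), and the value was -0.16 without shTMLHE #1 replicate 3. SLC7A1 (CAT1), which carries arginine and lysine, rose with each hairpin. It stood at 348, 345 and 337 CPM with shTMLHE #1, at 362, 346 and 357 CPM with shTMLHE #2 and at 223, 239 and 236 CPM in CCNE1 cells. All hairpin libraries were above all CCNE1 libraries (log2 fold changes 0.56 ± 0.04 and 0.61 ± 0.04, trend-removed 0.30 and 0.53), while CCNE1 and control cells were not called apart as counted (0.05 ± 0.04) and CCNE1 cells were called higher with the trend removed (0.21).

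Among the amino acid enzymes, ALDH18A1, which starts proline synthesis, fell by 0.21 ± 0.05 with shTMLHE #1 (trend-removed -0.21; by total counts the sign turned to 0.19) and was not called with shTMLHE #2 (0.05 ± 0.05, trend-removed 0.04). CTH, which makes cysteine from cystathionine, rose by 0.40 ± 0.10 with shTMLHE #1 (26.6 ± 2.11 CPM, against 20.1 ± 1.98 CPM in CCNE1 cells; trend-removed 0.49) and was not called with shTMLHE #2 (-0.09 ± 0.11; trend-removed -0.33, called). ASNS was not called in any comparison, at 1.7 to 4.76 CPM over all libraries, and 44.6% of its exon bases overlap an unnamed transcript. PYCR1, the remaining enzyme, is described above.

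As counted, SESN2, DDIT4 and CHAC1 were higher with shTMLHE #1 and lower with shTMLHE #2, and with the trend removed none of them was lower. SESN2, an inhibitor of mTORC1 signalling, stood at 86.2, 81.8 and 80.9 CPM with shTMLHE #1, at 36.8, 40.7 and 39.9 CPM with shTMLHE #2 and at 58.8, 56.3 and 70.1 CPM in CCNE1 cells. Its rise of 0.43 ± 0.07 with shTMLHE #1 was 0.71 with the trend removed, whereas its fall of -0.66 ± 0.07 with shTMLHE #2 turned to 0.10, which was not called. DDIT4 (REDD1), also an mTORC1 inhibitor, rose by 0.40 ± 0.12 with shTMLHE #1 (trend-removed 0.87). With shTMLHE #2 its value was -0.28 ± 0.12 as counted (adjusted p = 0.0398), 0.61 with the trend removed and 0.25 by total counts. That call was lost without CCNE1 replicate 1 (-0.26) or 3 (-0.28) and without shTMLHE #2 replicate 2 (-0.26) or 3 (-0.19), and 41.2% of its exon bases overlap DDIT4-AS1.

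CHAC1, which degrades glutathione, stood at 22.7, 23.9 and 22.7 CPM with shTMLHE #1, at 9.74, 10.2 and 10 CPM with shTMLHE #2, at 16.1, 14.1 and 23.8 CPM in CCNE1 cells and at 16, 13.5 and 12.9 CPM in control cells. CCNE1 replicate 3 stood apart from its group. Without it the log2 fold change with CCNE1 was 0.09, against 0.34 ± 0.14 with it (adjusted p = 0.0482), and that call was also lost without control replicate 2 (0.31) or 3 (0.28), without shTMLHE #1 replicate 1 (0.34), 2 (0.34) or 3 (0.35), and without shTMLHE #2 replicate 1, 2 or 3 (0.34 each). The rise with shTMLHE #1 (0.36 ± 0.13, adjusted p = 0.0173) was lost without CCNE1 replicate 1 (0.30) or 2 (0.21) or without shTMLHE #1 replicate 2 (0.34), and was 0.62 without CCNE1 replicate 3. With shTMLHE #2 CHAC1 was lower as counted (-0.84 ± 0.14) and higher with the trend removed (0.36). VLDLR, a lipoprotein receptor, was the largest rise of the arm with either hairpin as counted; with the trend removed ATF5 (1.16) exceeded it with shTMLHE #2. It stood at 23.8, 21.2 and 14.8 CPM with shTMLHE #1, at 17.6, 18.7 and 19.4 CPM with shTMLHE #2, at 7.02, 5.72 and 4.69 CPM in CCNE1 cells and at 3.14, 2.22 and 3.97 CPM in control cells, without overlap between the hairpin libraries, the CCNE1 libraries and the control libraries. The log2 fold changes were 1.79 ± 0.17 with shTMLHE #1, 1.68 ± 0.17 with shTMLHE #2 and 0.89 ± 0.22 with CCNE1, and the trend-removed values were 1.32, 0.83 and 0.67.

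**Figure D4:**
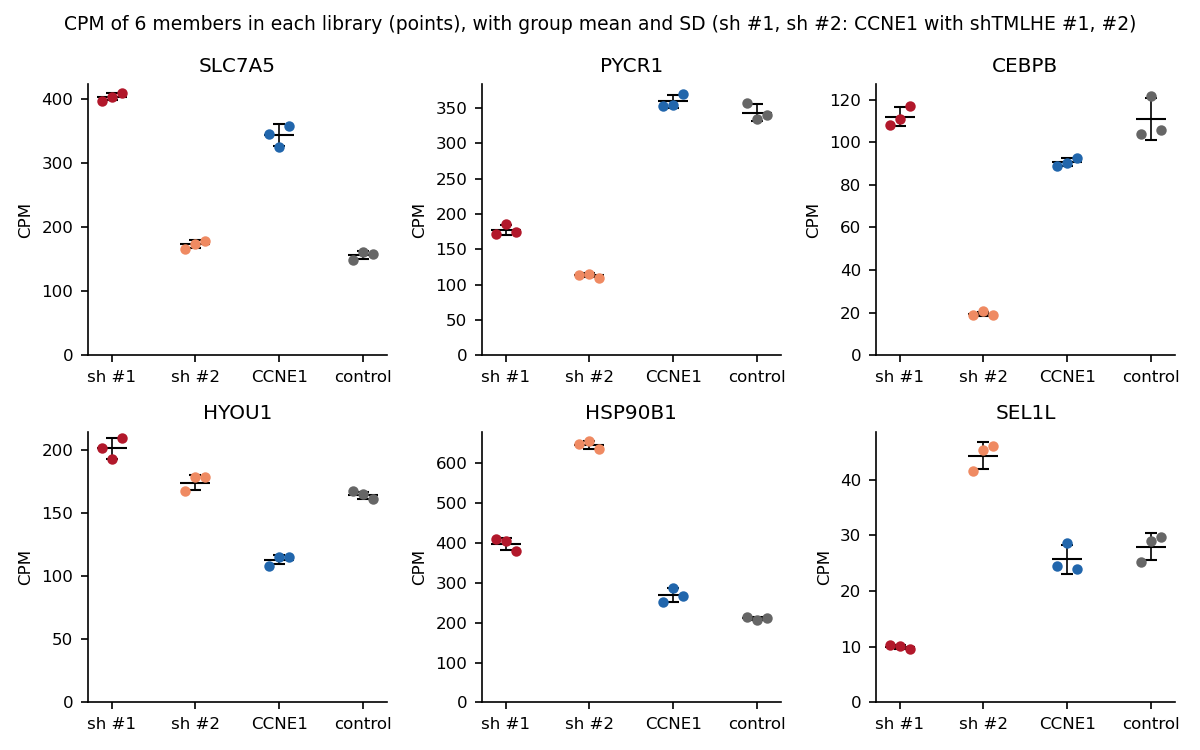
CPM (y axis, from 0) of SLC7A5, PYCR1, CEBPB, HYOU1, HSP90B1 and SEL1L in each library (points) of the 4 groups (x axis), with group means and SD (bars, n = 3). PYCR1 averages 177 and 113 CPM in the hairpin groups and 359 CPM in CCNE1 cells, HYOU1 averages 201 and 174 CPM and 113 CPM, and SEL1L lies at 10 CPM with shTMLHE #1 and at 44.3 CPM with shTMLHE #2.

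In the ER arm, the chaperones HYOU1, HSPA5 and HSP90B1 rose with each hairpin. HYOU1 (chr11:119044189-119057202, minus strand), a large HSP70 relative that exchanges nucleotide on BiP, stood at 201, 193 and 209 CPM with shTMLHE #1, at 167, 178 and 178 CPM with shTMLHE #2, at 108, 115 and 115 CPM in CCNE1 cells and at 167, 165 and 161 CPM in control cells. CCNE1 cells were below every other library. The log2 fold change was 0.83 ± 0.04 with shTMLHE #1, 0.63 ± 0.04 with shTMLHE #2 and -0.54 ± 0.04 with CCNE1 (adjusted p = 2.52e-19, 6.48e-16 and 8.95e-13). With the trend removed the values were 0.83, 0.90 and -0.34, all called.

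HSPA5 (BiP, chr9:125234853-125241330, minus strand), the chaperone that holds the stress sensors silent, stood at 607, 617 and 599 CPM with shTMLHE #1, at 671, 674 and 686 CPM with shTMLHE #2, at 489, 486 and 511 CPM in CCNE1 cells and at 540, 528 and 558 CPM in control cells. The groups do not overlap, yet the changes were small: 0.29 ± 0.03 with shTMLHE #1, 0.45 ± 0.03 with shTMLHE #2 and -0.13 ± 0.03 with CCNE1 (trend-removed 0.23, 0.17 and -0.16). HSP90B1 (GRP94), the ER HSP90, rose in all 3 comparisons, with 409, 404 and 381 CPM with shTMLHE #1, 649, 655 and 635 CPM with shTMLHE #2, 251, 286 and 268 CPM in CCNE1 cells and 214, 207 and 211 CPM in control cells. Its log2 fold changes were 0.57 ± 0.04, 1.27 ± 0.04 and 0.35 ± 0.04 (trend-removed 0.41, 0.68 and 0.12). DNAJC3 (p58IPK), a BiP cochaperone, rose by 0.96 ± 0.12 with shTMLHE #1, 1.88 ± 0.11 with shTMLHE #2 and 0.58 ± 0.14 with CCNE1, of which the trend-removed values were 0.51, 0.93 and 0.26, the last not called. It averaged 24.3 ± 2.3 CPM with shTMLHE #1, 46 ± 1.82 CPM with shTMLHE #2, 12.4 ± 2.15 CPM in CCNE1 cells and 8.41 ± 1.74 CPM in control cells.

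SDF2L1, MANF, CRELD2 and DNAJB9 differed from one another. SDF2L1, a partner of BiP cochaperones, fell by 0.78 ± 0.08 with shTMLHE #1 (28.8 ± 1.29 CPM, against 49.6 ± 5.82 CPM in CCNE1 cells) and had -1.24 ± 0.09 with shTMLHE #2 (20.9 ± 1.9 CPM), but it is GC-rich at 65.5% and its trend-removed values were -0.0016 and 0.25. MANF, a secreted cofactor of BiP, fell by 0.49 ± 0.07 with CCNE1 (trend-removed -0.29). It fell by 0.34 ± 0.07 with shTMLHE #1, which was -0.07 and not called with the trend removed and 0.05 by total counts, and was not called as counted with shTMLHE #2 (0.11 ± 0.07; trend-removed 0.50, called). CRELD2, an ER protein induced by misfolding, fell by 0.53 ± 0.10 with CCNE1 and rose by 0.41 ± 0.10 with shTMLHE #1, with 35.9 ± 4.8 CPM with shTMLHE #1, 27 ± 2.4 CPM in CCNE1 cells and 39 ± 4.21 CPM in control cells (trend-removed -0.29 and 0.57). With shTMLHE #2 CRELD2 was not called as counted (0.05 ± 0.10; trend-removed 0.52, called). DNAJB9 (ERdj4), which represses IRE1, rose by 1.44 ± 0.26 with shTMLHE #2 at a low level (6.37 ± 0.175 CPM, against 2.35 ± 0.273 CPM in CCNE1 cells; trend-removed 0.84).

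The disulfide isomerases PDIA6, PDIA3 and PDIA4 each fell with CCNE1, also with the trend removed. PDIA6 fell by 0.18 ± 0.05 with CCNE1 and rose by 0.30 ± 0.04 with shTMLHE #1 and by 0.35 ± 0.04 with shTMLHE #2 (trend-removed -0.19, 0.37 and 0.22). PDIA3 (ERp57), which works with the ER lectins, had -0.33 ± 0.04 with CCNE1 (trend-removed -0.46), 0.17 ± 0.04 with shTMLHE #1 and 0.32 ± 0.04 with shTMLHE #2, all called, but with the trend removed the hairpin values were 0.07, which was not called, and -0.11. PDIA4 fell by 0.39 ± 0.04 with CCNE1 (206 ± 9.39 CPM in CCNE1 cells and 270 ± 12 CPM in control cells; trend-removed -0.17). With the trend removed it was called higher with each hairpin (0.16 with shTMLHE #1 and 0.39 with shTMLHE #2). As counted it was not called with shTMLHE #1 (0.09 ± 0.04), and the call with shTMLHE #2 (0.09 ± 0.04, adjusted p = 0.0466) was lost without control replicate 1 (0.09), CCNE1 replicate 1 (0.07) or 3 (0.08), shTMLHE #1 replicate 2 (0.09), or shTMLHE #2 replicate 2 (0.09) or 3 (0.07). Other genes overlap 25.2% of the exon bases of PDIA6 and 18.9% of those of PDIA3.

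The lectins that hold glycoproteins during folding diverged. CALR (calreticulin) averaged 932 ± 40.6 CPM with shTMLHE #1, 678 ± 11.9 CPM with shTMLHE #2, 735 ± 28.3 CPM in CCNE1 cells and 886 ± 28.1 CPM in control cells. It rose by 0.34 ± 0.03 with shTMLHE #1 (trend-removed 0.60), and its fall with CCNE1 (-0.27 ± 0.03) was -0.04 and not called with the trend removed. With shTMLHE #2 it had -0.12 ± 0.03 as counted, 0.39 with the trend removed and 0.41 by total counts. CANX (calnexin), its membrane-bound counterpart, rose by 0.63 ± 0.03 with CCNE1 (581 ± 11.2 CPM in CCNE1 cells and 376 ± 11.1 CPM in control cells; trend-removed 0.38). With the hairpins its rises of 0.11 ± 0.03 (shTMLHE #1) and 0.59 ± 0.03 (shTMLHE #2) turned to -0.14 and -0.11 with the trend removed.

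Among the degradation genes HERPUD1 rose with each hairpin, and SEL1L differed between the hairpins by more than any other ER arm gene. HERPUD1, a membrane scaffold for removal of misfolded proteins, stood at 99.5, 101 and 94.8 CPM with shTMLHE #1, at 88.4, 87.2 and 85.8 CPM with shTMLHE #2, at 76.6, 75.6 and 74.1 CPM in CCNE1 cells and at 99.1, 99.4 and 115 CPM in control cells. CCNE1 cells were below every other library, with log2 fold changes of 0.39 ± 0.06, 0.21 ± 0.06 and -0.47 ± 0.06 with shTMLHE #1, shTMLHE #2 and CCNE1 (trend-removed 0.43, 0.18 and -0.39). SEL1L, the adaptor of the HRD1 ubiquitin ligase, stood at 10.4, 10.1 and 9.68 CPM with shTMLHE #1, at 41.5, 45.4 and 46 CPM with shTMLHE #2, at 24.5, 28.7 and 24 CPM in CCNE1 cells and at 25.2, 29 and 29.8 CPM in control cells. The shTMLHE #1 libraries were the lowest and the shTMLHE #2 libraries the highest. The fall with shTMLHE #1 was -1.36 ± 0.10 (adjusted p = 2.27e-14; trend-removed -1.96), and the value with shTMLHE #2 was 0.78 ± 0.09 as counted and -0.33 with the trend removed. EDEM1, which recognises mannose-trimmed glycoproteins, rose by 0.75 ± 0.12 with CCNE1 (22.1 ± 2.83 CPM in CCNE1 cells and 13.1 ± 2.66 CPM in control cells; trend-removed 0.66). EDEM1 was not called with either hairpin as counted (0.16 ± 0.11 and -0.07 ± 0.11), and with the trend removed its -0.57 with shTMLHE #2 was called.

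Of the sensors, PERK (EIF2AK3) rose by 0.48 ± 0.17 with shTMLHE #1 (adjusted p = 0.0108) and by 1.12 ± 0.16 with shTMLHE #2 (adjusted p = 6.08e-08). With the trend removed these were 0.32, not called, and 0.65, called. EIF2AK3 averaged 8.47 ± 0.555 CPM with shTMLHE #1, 13.2 ± 1.4 CPM with shTMLHE #2 and 6.02 ± 0.692 CPM in CCNE1 cells. IRE1 (ERN1) rose as counted with shTMLHE #2 (0.56 ± 0.18, adjusted p = 0.00465; trend-removed 0.33, not called). ATF6 rose as counted in all 3 comparisons (0.32 ± 0.09 with shTMLHE #1, 0.42 ± 0.09 with shTMLHE #2 and 0.44 ± 0.10 with CCNE1), whereas with the trend removed the values were -0.15, -0.50 and 0.17, of which the one for shTMLHE #2 was called. XBP1, the RNA that IRE1 splices, fell with each hairpin: it stood at 110, 113 and 118 CPM with shTMLHE #1, at 90.7, 91.9 and 90.4 CPM with shTMLHE #2 and at 137, 129 and 136 CPM in CCNE1 cells. The groups do not overlap, and the log2 fold changes were -0.24 ± 0.05 (trend-removed -0.25; 0.16 by total counts) and -0.56 ± 0.05 (trend-removed -0.99; -0.03, not called, by total counts).

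ERSE and ERSE-II are elements through which the unfolded protein response acts, and 10 of the 19 ER arm genes with a promoter window hold one of them, so the windows of 6 members with results above are printed. RefSeq promoter windows of 300 bases (GRCh38.p14, from 250 bases before to 50 after a transcript start) were at hand for 34 of the 36 members, 15 of the ATF4 arm and 19 of the ER arm, in 50 windows. They were searched on both strands for ERSE (CCAAT, 9 bases of any kind, CCACG), the site for ATF6 and XBP1 with NF-Y, for ERSE-II (ATTGG, 1 base of any kind, CCACG), for the XBP1 core TGACGTGG, and for the C/EBP-ATF composite TGATGNAA that ATF4 binds. ERSE was found in 7 of 19 ER arm genes (36.8%) and in 0 of 15 ATF4 arm genes, against 0.0916% of 27305 genes with a window. ERSE-II was found in 3 of 19 ER arm genes (HYOU1, SDF2L1 and HERPUD1), in 0 of 15 ATF4 arm genes and in 0.0696% of all genes. The composite was found in 4 of 15 ATF4 arm genes (CHAC1, ASNS, SLC3A2 and SLC7A1), in HERPUD1 and in 4.46% of all genes, and the XBP1 core was found in ALDH18A1 and HYOU1 and in 0.927% of all genes. In HYOU1 the XBP1 core overlaps the upstream ERSE-II; no other matches overlap. A match is a run of letters and not a tested binding site.

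Capitals mark the matches in the windows below, written 5′ to 3′ on the strand of the gene, with the leftmost base of each match counted from the transcript start. HYOU1 (chr11:119057156-119057455, minus strand) has ERSE-II at -185 and -79. HSPA5 (chr9:125241294-125241593, minus strand) has ERSE at -66. HERPUD1 (chr16:56931892-56932191, plus strand) has ERSE-II at -117 and the composite at -176. XBP1 (chr22:28800520-28800819, minus strand) has ERSE at -52. SDF2L1 (chr22:21642052-21642351, plus strand) has ERSE-II at -188. SLC7A1 (chr13:29595639-29595938, minus strand) has the composite at 8, within the transcript.
HYOU1: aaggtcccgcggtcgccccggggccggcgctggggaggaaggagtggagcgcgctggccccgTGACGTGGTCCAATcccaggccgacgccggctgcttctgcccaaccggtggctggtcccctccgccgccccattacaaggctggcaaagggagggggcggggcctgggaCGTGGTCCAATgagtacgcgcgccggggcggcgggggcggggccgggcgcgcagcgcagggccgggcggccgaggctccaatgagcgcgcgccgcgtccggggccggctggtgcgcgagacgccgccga
HSPA5: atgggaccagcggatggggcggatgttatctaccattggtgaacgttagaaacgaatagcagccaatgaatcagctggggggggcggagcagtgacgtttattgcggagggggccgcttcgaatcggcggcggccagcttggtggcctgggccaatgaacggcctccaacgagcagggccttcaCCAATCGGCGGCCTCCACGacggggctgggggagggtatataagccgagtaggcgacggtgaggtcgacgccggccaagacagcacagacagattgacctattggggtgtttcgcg
HERPUD1: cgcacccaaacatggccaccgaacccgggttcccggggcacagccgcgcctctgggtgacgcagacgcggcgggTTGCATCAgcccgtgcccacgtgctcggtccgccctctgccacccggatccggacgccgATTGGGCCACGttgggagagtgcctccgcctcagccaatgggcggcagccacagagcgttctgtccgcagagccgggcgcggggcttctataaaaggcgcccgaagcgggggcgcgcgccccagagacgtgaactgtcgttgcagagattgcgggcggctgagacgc
XBP1: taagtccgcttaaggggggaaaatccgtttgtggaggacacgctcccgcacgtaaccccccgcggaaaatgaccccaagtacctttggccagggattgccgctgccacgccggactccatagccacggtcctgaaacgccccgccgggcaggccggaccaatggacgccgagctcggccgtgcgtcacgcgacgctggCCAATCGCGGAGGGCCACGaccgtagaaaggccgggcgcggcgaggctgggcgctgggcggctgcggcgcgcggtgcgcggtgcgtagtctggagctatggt
SDF2L1: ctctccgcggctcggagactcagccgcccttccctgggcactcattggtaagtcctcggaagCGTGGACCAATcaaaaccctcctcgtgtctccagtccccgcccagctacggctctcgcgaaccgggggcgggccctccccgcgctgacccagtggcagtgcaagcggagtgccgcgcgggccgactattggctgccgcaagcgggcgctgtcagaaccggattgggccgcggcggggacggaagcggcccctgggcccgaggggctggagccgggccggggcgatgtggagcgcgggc
SLC7A1: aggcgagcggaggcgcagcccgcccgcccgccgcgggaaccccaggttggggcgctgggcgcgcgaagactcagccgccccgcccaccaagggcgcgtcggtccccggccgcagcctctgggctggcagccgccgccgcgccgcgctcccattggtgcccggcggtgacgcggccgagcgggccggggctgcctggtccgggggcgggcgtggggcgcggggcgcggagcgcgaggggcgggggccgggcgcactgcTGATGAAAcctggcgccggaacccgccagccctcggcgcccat

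The first 3 of these windows belong to genes that fell with CCNE1 and rose with each hairpin, also with the trend removed, while XBP1 and SDF2L1 carry the same kinds of element and had lower counts with each hairpin, for SDF2L1 not so with the trend removed. Among the 10 ER arm genes with ERSE or ERSE-II, 6 fell and 2 rose with CCNE1 (median -0.15), 8 rose and 2 fell with shTMLHE #1 (median 0.32), and 6 rose and 3 fell with shTMLHE #2 (median 0.28). Among the 9 ER arm genes with a window and neither element, 2 fell and 3 rose with CCNE1 (median -0.10), 3 rose and 2 fell with shTMLHE #1 (median 0.16), and 7 rose and none fell with shTMLHE #2 (median 0.56). All these are calls as counted, and some changed in each comparison with the trend removed. With CCNE1, of the genes with neither element, SEL1L (-0.46) was then lower, and ATF6 (0.17) and DNAJC3 (0.26) were not called. Among those with an element, XBP1 (-0.16) was lower and CALR (-0.04) not called. With shTMLHE #1 and neither element, PDIA4 (0.16) was higher, and MANF (-0.07), EIF2AK3 (0.32) and ATF6 (-0.15) were not called. Among those with an element, CANX (-0.14) was lower and SDF2L1 (-0.0016) not called. With shTMLHE #2, of the genes with neither element, SEL1L (-0.33), ATF6 (-0.50) and EDEM1 (-0.57) were then lower. ERN1 (0.33) was not called, and the rest were higher. Of the genes with an element, XBP1 (-0.99) and CANX (-0.11) were lower and the rest higher. No test of a difference between these 2 sets was made. Of the 4 ATF4 arm genes with the composite, 2 rose and none fell with CCNE1, 2 rose and 1 fell with shTMLHE #1, and 1 rose and 2 fell with shTMLHE #2, as counted. With the trend removed CHAC1, SLC3A2 and SLC7A1 were called higher in each of these comparisons and ASNS in none. The values with shTMLHE #2 were then 0.36 for CHAC1, 0.10 for SLC3A2 and 0.53 for SLC7A1. Beside the calls as counted, 25.1% of all tested genes were higher and 19.1% lower with CCNE1. With shTMLHE #1 the shares were 30.4% and 30.3%, and with shTMLHE #2 36.8% and 36.2%. In the trend-removed fit they were 23.8% and 13.4% with CCNE1, 27.2% and 28.8% with shTMLHE #1, and 29.8% and 32.8% with shTMLHE #2.

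**Figure D5:**
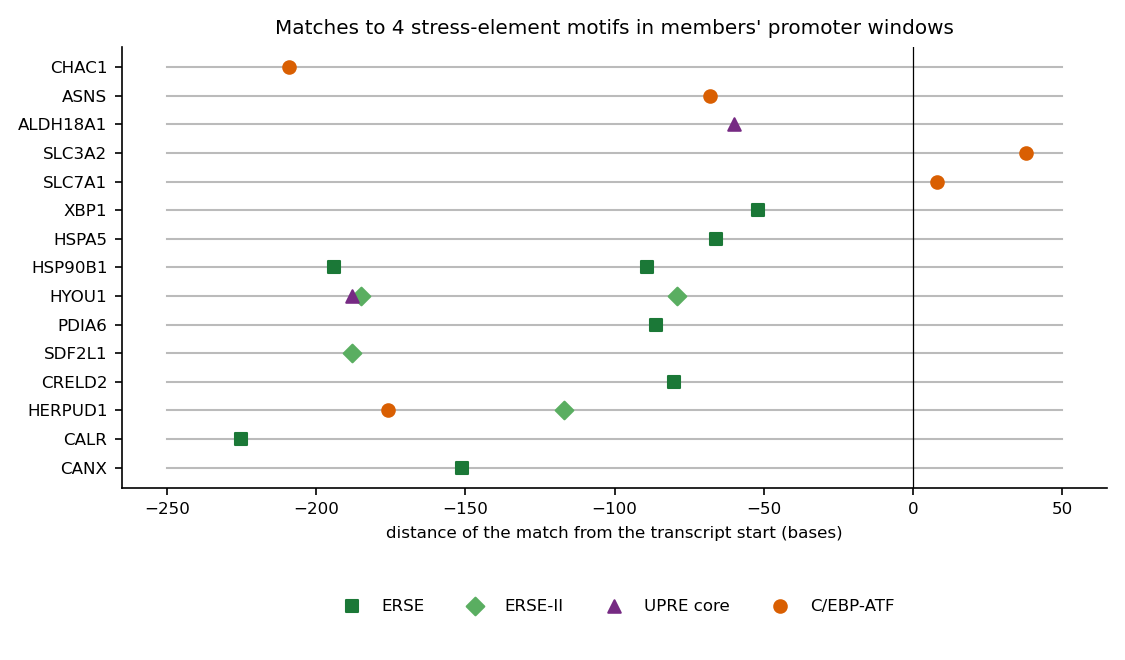
Positions of matches to ERSE, ERSE-II, the XBP1 core (UPRE core) and the C/EBP-ATF composite (symbols) in the promoter windows of the 15 members with a match (rows), as distance in bases from the transcript start (x axis; for CANX the first of its 4 windows, for PDIA6 the second of its 2). ERSE and ERSE-II lie in ER arm genes between -225 and -52, and the composite lies in ATF4 arm genes and HERPUD1.

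Set directly against each other, the hairpins differed most in CEBPB and SEL1L, and ATF4 arm genes were mostly higher with shTMLHE #1. With shTMLHE #1 minus shTMLHE #2, 10 of 16 ATF4 arm genes were higher and 2 lower (median 0.48), and 6 of 20 ER arm genes were higher and 10 lower (median -0.12), beside 60.3% of all tested genes called, 31.3% higher and 29% lower. With the trend removed the ATF4 arm had 7 higher and 4 lower and the ER arm 7 higher and 7 lower, beside 26.3% of all genes higher and 22% lower in that fit. CEBPB had the largest difference (112 ± 4.41 CPM with shTMLHE #1 and 19.5 ± 0.955 CPM with shTMLHE #2; 2.52 ± 0.06, adjusted p = 6.99e-29, trend-removed 1.74). SLC7A5 followed in the ATF4 arm with SESN2 and CHAC1 (1.22 ± 0.04, 1.09 ± 0.07 and 1.21 ± 0.14; trend-removed 0.69, 0.61 and 0.60). SEL1L was the most negative at -2.14 ± 0.10 (adjusted p = 7.02e-21, trend-removed -1.63). HSP90B1 and DNAJC3 rose less with shTMLHE #1 than with shTMLHE #2 (-0.70 ± 0.04 and -0.92 ± 0.11, trend-removed -0.27 and -0.42), whereas the difference in HYOU1 was 0.21 ± 0.04 as counted and -0.07, not called, with the trend removed, and that in ATF4 was 0.13 ± 0.03 as counted and -0.25 with the trend removed. ATF5 was lower as counted (-0.29 ± 0.10, trend-removed -0.80), a call of the counts lost without shTMLHE #1 replicate 1 (-0.25). The ATF4 arm count of lower genes was then 1.

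Further genes of the routes came from 8 lists with 124 genes, 121 of them tested. Their counts stand beside the shares of all tested genes given above, 44.2% called with CCNE1, 60.7% with shTMLHE #1 and 73% with shTMLHE #2, and the gene named for a list is the one with the smallest p, not the largest change. In the trend-removed fit 23.8% of all genes were higher and 13.4% lower with CCNE1. The same shares were 27.2% and 28.8% with shTMLHE #1 and 29.8% and 32.8% with shTMLHE #2. With CCNE1, 11 of 17 genes of amino acid transport and metabolism rose and 1 fell (median 0.64), with PSAT1, a serine synthesis enzyme, at 255 ± 10.3 CPM in CCNE1 cells and 145 ± 4.5 CPM in control cells (0.82 ± 0.04, trend-removed 0.64). Of 13 tRNA synthetase genes with the tRNA exporter XPOT, 7 rose and 1 fell (median 0.30), with the threonine enzyme TARS named (0.73 ± 0.05, trend-removed 0.57). The trend-removed fit called 15 of 17 and 12 of 13 higher and none lower. Of 20 folding and disulfide enzymes 7 fell and 2 rose, with the prolyl hydroxylase subunit P4HB, itself a disulfide isomerase, at 465 ± 15 CPM in CCNE1 cells and 653 ± 11.6 CPM in control cells (-0.49 ± 0.03, trend-removed -0.26). In the list of regulators and eIF2 signalling 9 of 20 rose and 5 fell, with EIF2S1, the eIF2 subunit that is phosphorylated, at 0.72 ± 0.05 (trend-removed 0.40). TXNIP, which binds thioredoxin, fell to 17.8 ± 0.6 CPM in CCNE1 cells, against 62.7 ± 2.64 CPM in control cells (-1.82 ± 0.09, trend-removed -1.93), in a list of 8 secreted and stress outputs of which 3 rose and 3 fell. The ER-bound factor CREB3L2 had 0.50 ± 0.05 (trend-removed 0.53), the ubiquitin-conjugating enzyme UBE2J1 had 0.56 ± 0.05 (trend-removed 0.26) and the translocon subunit SEC61A1 had -0.32 ± 0.04 (trend-removed -0.12). Their lists had 3 rises and 4 falls of 9 sensor genes, 4 and 8 of 18 degradation genes, and 5 and 6 of 16 translocation genes. With the trend removed these were 3 and 0, 4 and 3, and 4 and 5.

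With shTMLHE #1 and shTMLHE #2 the same amino acid list had 5 rises and 8 falls (median -0.08) and 5 rises and 11 falls (median -0.48). PHGDH, which starts serine synthesis, stood at 890 ± 33.3 CPM with shTMLHE #1 and 428 ± 6.83 CPM with shTMLHE #2, against 1482 ± 6.32 CPM in CCNE1 cells (-0.74 ± 0.03 and -1.79 ± 0.03, trend-removed -0.71 and -1.59). EIF4EBP1, an ATF4 target that binds eIF4E, fell to 324 ± 17.1 CPM with shTMLHE #1 and 180 ± 8.44 CPM with shTMLHE #2, against 807 ± 23.2 CPM in CCNE1 cells (-1.32 ± 0.04 and -2.16 ± 0.04, trend-removed -0.56 and -0.68). Its list of 20 regulators had 5 rises and 11 falls with shTMLHE #1, and 11 rises and 9 falls with shTMLHE #2. With the trend removed these were 3 and 11, and 5 and 12. Of 13 tRNA synthetase genes 3 rose and 5 fell with shTMLHE #1 and 3 rose and 7 fell with shTMLHE #2, with the serine enzyme SARS at -0.40 ± 0.03 and -1.07 ± 0.03 (trend-removed -0.19 and -0.73; by total counts the first was -0.01 and not called). Among 8 tested secreted and stress outputs, 5 rose and none fell with shTMLHE #1, and 3 rose and 4 fell with shTMLHE #2. The death receptor TNFRSF10B (DR5), which CHOP induces, rose to 120 ± 2.02 CPM with shTMLHE #1 and 135 ± 3.9 CPM with shTMLHE #2, against 55.7 ± 2.7 CPM in CCNE1 cells (1.11 ± 0.05 and 1.28 ± 0.05, trend-removed 1.02 and 1.22).

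The further ER lists were mixed with the hairpins. Of 20 folding and disulfide enzymes 10 rose and 5 fell with shTMLHE #1, and 12 rose and 7 fell with shTMLHE #2, but with the trend removed the counts were 4 and 7, and 6 and 6. DNAJC10, an ER reductase, rose by 1.07 ± 0.10 with shTMLHE #1 as counted and had 0.05, not called, with the trend removed, and ERP29 fell by 1.02 ± 0.05 with shTMLHE #2 (trend-removed -0.78). Of 18 degradation genes 11 rose and 6 fell with shTMLHE #1, with FAF2, which recruits the ATPase VCP, named (0.47 ± 0.05, trend-removed 0.36), and 7 rose and 8 fell with shTMLHE #2. EDEM2, which trims mannose, fell with shTMLHE #2 to 6.67 ± 0.299 CPM, against 34.7 ± 4.64 CPM in CCNE1 cells (-2.39 ± 0.11, trend-removed -1.82). Of 16 translocation genes 6 rose and 6 fell with shTMLHE #1 and 9 rose and 5 fell with shTMLHE #2, but with the trend removed 3 were higher and 9 lower with shTMLHE #1 and 4 were higher and 8 lower with shTMLHE #2. SSR4, a subunit of the translocon-associated complex, fell to 91.3 ± 3.12 CPM with shTMLHE #1 and 72.7 ± 2.69 CPM with shTMLHE #2, against 239 ± 10.3 CPM in CCNE1 cells (-1.39 ± 0.05 and -1.71 ± 0.05, trend-removed -0.95 and -0.72). Of 9 tested genes for sensors and their processing 2 rose and 6 fell with shTMLHE #1, TMBIM6, known to damp IRE1, among them (-0.49 ± 0.03, trend-removed -0.48), and 4 rose and 4 fell with shTMLHE #2, where the trend-removed fit had 5 higher and 0 lower. TMED2, a cargo receptor of ER vesicles, rose with shTMLHE #2 (0.76 ± 0.05, trend-removed 0.16). The 2 rises with shTMLHE #1 became 1 without CCNE1 replicate 2, without shTMLHE #1 replicate 1 or without shTMLHE #1 replicate 2.

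Between the hairpins, as shTMLHE #1 minus shTMLHE #2, the genes of smallest p in the ATF4 lists were all higher. Their lists did not all lean that way. The regulators list had 5 of 20 higher and 12 lower (median -0.39), and 6 and 8 with the trend removed. The amino acid list had 12 of 17 higher and 5 lower, the tRNA synthetase list 7 of 13 and 4, and the secreted and stress list 6 of 8 and 1. With the trend removed these were 10 and 4, 9 and 2, and 3 and 1. Of all tested genes 31.3% were higher and 29% lower as counted, and 26.3% and 22% in the trend-removed fit. TXNIP stood at 44.3 ± 2.83 CPM with shTMLHE #1 and 6.75 ± 0.654 CPM with shTMLHE #2 (2.72 ± 0.10, trend-removed 3.02). SHMT2, a mitochondrial enzyme of serine and glycine metabolism, stood at 685 ± 35.3 CPM with shTMLHE #1 and 261 ± 5.78 CPM with shTMLHE #2 (1.39 ± 0.03, trend-removed 1.02). EIF4EBP1 had 0.84 ± 0.04 (trend-removed 0.12) and the alanine enzyme AARS 0.76 ± 0.03 (trend-removed 0.53). The genes of smallest p in the ER lists were all lower, though the lists were mixed. The degradation list had 8 of 18 higher and 6 lower, and 9 and 3 with the trend removed. The sensor list had 3 of 9 higher and 4 lower, the folding list 5 of 20 and 9, and the translocation list 4 of 16 and 8. With the trend removed these were 1 and 5, 5 and 4, and 5 and 5. SSR1, another subunit of the translocon-associated complex, stood at 41.6 ± 3.74 CPM with shTMLHE #1 and 177 ± 1.15 CPM with shTMLHE #2 (-2.09 ± 0.06, trend-removed -1.62). The calcium-binding protein RCN1 had -1.45 ± 0.08 (trend-removed -0.99), TMED2 -1.33 ± 0.05 (trend-removed -0.88) and UBE2J1 -1.16 ± 0.05 (trend-removed -0.66). Other genes overlap 21.9% of the exon bases of RCN1.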

How the data were processed

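The authors deposited a table of whole-number counts per gene, not normalized, and a table of FPKM. Per the submitters' processing notes, STAR 2.6.1, DESeq2 and the GRCh38 build were used; the sources used here do not give the counting program or its strand setting, so overlapping genes are given as uncertain. Deposited gene lengths equalled the GENCODE 29 exon lengths for 100% of genes.

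Counts were tested with edgeR 4.0.16 in R 4.3.3 (filterByExpr by group, TMM, quasi-likelihood fit with the robust option, a mean for each group, all 12 libraries, 8 residual degrees of freedom, Benjamini-Hochberg adjustment). SE is the log2 fold change divided by the root of F. In the trend-removed fit, natural splines of 5 degrees of freedom on GC content and log transcript length entered as offsets per library. The fit was tested on simulated data in which a small share of genes changed, as many up as down. Here 44.2% to 73% of all tested genes were called against the reference cells, a breadth that the simulation did not cover. Deposited FPKM served only for levels per length.

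The members and lists were chosen with earlier results of these data known. The rule for named genes took the members, CCNE1, TMLHE and up to 3 genes of smallest p per further list and comparison, of which the text gives the first. The ends of the proteins were not analysed here. Alternatives comprised other scalings and filters, DESeq2 1.42.0, limma-voom 3.58.1, fits of the compared groups, a replicate block and each library left out.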

Additional observations from a re-analysis of the deposited data

Results flagged for a closer look

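In 7 members each hairpin moved the gene past the threshold against CCNE1 cells, with opposite signs, and the direct difference between the hairpins also passed. The share of all tested genes that meet this rule was not counted, so whether 7 members are many cannot be read. Of all tested genes 60.7% were called with shTMLHE #1, 73% with shTMLHE #2 and 60.3% between the hairpins. The differences are log2 values of shTMLHE #1 minus shTMLHE #2. In the ATF4 arm they were 2.52 for CEBPB, 1.22 for SLC7A5, 1.21 for CHAC1, 1.09 for SESN2 and 0.68 for DDIT4. In the ER arm they were -2.14 for SEL1L and 0.46 for CALR. In the fit free of the trend on GC content and length, the differences of CEBPB (1.74), SLC7A5 (0.69), SESN2 (0.61), CHAC1 (0.60), CALR (0.21) and SEL1L (-1.63) were still called, and that of DDIT4 (0.26) was not. In that fit the opposite signs held for CEBPB (0.92 with shTMLHE #1 and -0.82 with shTMLHE #2) and SLC7A5 (0.46 and -0.23) and not for the other 5. The calls of DDIT4 with shTMLHE #2 and of CHAC1 with shTMLHE #1 were lost when single libraries were left out. That of DDIT4 was also lost with RLE size factors, upper quartile scaling, DESeq2 or no filter on low counts. The call of CALR with shTMLHE #2 was lost with upper quartile scaling or no filter.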

How the results depend on the processing

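With RLE size factors, either other filter on low counts, DESeq2, limma-voom or the replicate block, no count of members called per arm and direction moved by over 1.5 times and no named gene changed sign. Single calls did change. DDIT4 with shTMLHE #2 was not called with RLE, DESeq2 or no filter (-0.25 each). CHAC1 with CCNE1 was not called with DESeq2 (0.35), limma-voom (0.30) or the CPM filter (0.33). With no filter SLC3A2 with shTMLHE #1 and CALR with shTMLHE #2 were not called (-0.09 each). Upper quartile scaling lost the same calls and gained others. Between the hairpins limma-voom lost TMLHE and gained EDEM1, and RLE and DESeq2 gained SLC7A1. The replicate numbers did not pair the samples: correlations of same-numbered libraries ranged from -0.046 to 0.026 over 18 pairs, against -0.031 to 0.034 for other pairs, so the blocked fit is given only here. It lost 2 calls, CHAC1 with CCNE1 (0.33, adjusted p = 0.0637 by edgeR) and PDIA4 with shTMLHE #2 (0.09, adjusted p = 0.0513), so that the ATF4 arm had 4 rises with CCNE1 and the ER arm 13 rises with shTMLHE #2 under the replicate block, against 5 and 14 without it.

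The counts of the arms that moved were, with the GC and length trend removed, with or without the replicate block, 10 rises of the ATF4 arm and 3 rises of the ER arm with CCNE1, 3 falls of the ATF4 arm with shTMLHE #1, 8 rises and 5 falls of the ATF4 arm and 6 falls of the ER arm with shTMLHE #2, and 4 lower ATF4 arm genes between the hairpins. By total counts they were 2 falls of the ATF4 arm and 2 of the ER arm with shTMLHE #1, 7 rises of the ATF4 arm and 1 fall of the ER arm with shTMLHE #2, and 4 lower ATF4 arm genes between the hairpins. By upper quartile scaling the ATF4 arm had 4 rises with shTMLHE #2. Between the hairpins 1 ATF4 arm gene was lower at an adjusted p under 0.01, and the 12 fits that leave out 1 library gave 1 to 2 there. With the further lists included, 29 of 80 counts moved with the trend removed and 27 by total counts. The regulators list with shTMLHE #2, for one, went from 11 to 5 higher with the trend removed.

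After removal of the trend, the log2 fold change changed sign in these genes. With shTMLHE #1 they were ATF4 (0.08), ATF5 (0.37), DDIT3 (0.17), SLC3A2 (0.26), EDEM1 (-0.09, with the replicate block -0.08), ATF6 (-0.15) and CANX (-0.14). With shTMLHE #2 they were ATF4 (0.32), DDIT4 (0.61, with the block 0.60), CHAC1 (0.36, with the block 0.37), SLC3A2 (0.10), SESN2 (0.10), PDIA3 (-0.11, with the block -0.12), SDF2L1 (0.25, with the block 0.26), SEL1L (-0.33), ATF6 (-0.50, with the block -0.49), CALR (0.39), CANX (-0.11) and CCNE1 itself (0.17). Between the hairpins they were ATF4 (-0.25), TRIB3 (-0.08), HSPA5 (0.06), HYOU1 (-0.07, with the block -0.08), PDIA3 (0.18), PDIA6 (0.15), SDF2L1 (-0.26) and ATF6 (0.35). With CCNE1 they were DDIT4 (0.13), SESN2 (0.15), CTH (-0.11), XBP1 (-0.16), DNAJB9 (-0.13, with the block -0.10) and SDF2L1 (0.01). By total counts, which moves the median of all genes, the sign changed with shTMLHE #1 in ATF4 (0.11), ATF5 (0.28), DDIT3 (0.23), ALDH18A1 (0.19), SLC3A2 (0.29), XBP1 (0.16), MANF (0.05) and ERN1 (0.30). With shTMLHE #2 it changed in ATF4 (0.12), DDIT4 (0.25), ASNS (0.22), CTH (0.44), EDEM1 (0.46), CALR (0.41) and CCNE1 (0.29), between the hairpins in ATF4 (-0.01) and VLDLR (-0.02), and with CCNE1 in TRIB3 (-0.01). By upper quartile scaling it changed with shTMLHE #2 in CTH (0.02) and EDEM1 (0.04), and with only the compared groups fitted with CCNE1 in TRIB3 (-0.01) and CTH (-0.0012). The causes of these moves were not tested.

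Leaving out 1 library at a time changed the sign only of values not called. With CCNE1 the values ranged from -0.02 to 0.06 for TRIB3, -0.15 to 0.02 for SESN2, -0.06 to 0.09 for CTH, -0.05 to 0.52 for DNAJB9, -0.21 to 0.01 for EIF2AK3 and -0.20 to 0.04 for TMLHE. With shTMLHE #1 they ranged from -0.01 to 0.39 for ASNS and -0.22 to 0.04 for ERN1, and with shTMLHE #2 from -0.06 to 0.19 for DDIT3, -0.01 to 0.12 for CRELD2 and -0.14 to 0.04 for EDEM1. Between the hairpins they ranged from -0.04 to 0.28 for VLDLR and -0.04 to 0.02 for PDIA4. Among the members the standard error was at most 0.30 in log2, in ASNS and DNAJB9, which have few counts.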
